A study of Homo sapiens with 5 samples.

Results

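The 10 genes described here are known direct targets of the transcription factor p53, grouped by roles other than cell cycle arrest and cell death. They are AEN, ZMAT3, PHLDA3, TP53I3, FDXR, TP53INP1, TRIAP1, SPATA18, FBXO22 and RPS27L. They were chosen by symbol, from what is known of their products, but with earlier results of these data known. All 10 were found among the 26485 genes of the count table. All 10 also passed the filter on low counts, which kept 14187 genes. RNA-seq of poly-A RNA was performed on 5 libraries of RPE1, an established cell line from human retinal pigment epithelium, here with a wild-type genotype. The cells had received DMSO, the solvent of the drug (2 libraries), or doxorubicin at 0.2 μM (2 libraries) or at 0.34 μM (1 library) for 18 h. The study describes the libraries as biological replicates and joins both doses into 1 group against DMSO, and that grouping was used here. The sample titles and the treatment description differ in the unit of the dose, and the values given are those of the titles. The comparison asks how the cells respond to a drug that damages DNA.

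As background, p53 is held at a low level in unstressed cells and is stabilized when DNA is broken, as it is by doxorubicin, which intercalates into DNA and poisons topoisomerase II. It then binds pairs of a short DNA element, a decamer, and raises transcription of the genes nearby. The best known of these genes stop the cell cycle or promote apoptosis. The genes described here were grouped by other roles, which does not mean that they have no part in arrest or death. They encode a nuclease (AEN), an RNA-binding protein (ZMAT3), a brake on the kinase AKT (PHLDA3) and oxidoreductases (TP53I3 and FDXR). Further products are a cofactor of stress signalling and autophagy (TP53INP1) and mitochondrial proteins (TRIAP1 and SPATA18). The last are a subunit of a ubiquitin ligase (FBXO22) and a ribosomal protein paralogue (RPS27L).

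Depth ranged from 23773061 to 36725345 counts per library, highest for 0.34 μM doxorubicin, and the TMM normalization factors were between 0.975 and 1.04. Levels are given as CPM, counts scaled to the TMM-normalized library size. The epithelial keratin gene KRT8 had between 8821 and 23990 counts and MITF, a regulator of pigment cells, between 743 and 1503. Of the genes that define mature retinal pigment epithelium, RPE65 had 3 to 8 counts, RLBP1 0 to 3 and TYRP1 1 to 7. For BEST1 the DMSO libraries had 26 and 14 counts, the doxorubicin libraries 86, 30 and 142, and for PMEL these were 7 and 5, then 22, 32 and 46. The 5 markers of blood and endothelial cells summed to between 0.381 and 2.74 CPM in DMSO and between 1.47 and 5.53 CPM in doxorubicin, with CD3E at 0 in all libraries. For the leukocyte gene PTPRC the DMSO libraries had 5 and 7 counts, and the doxorubicin libraries 25, 53 and 72. The 8 markers of pigment epithelium, mostly the keratins, summed to between 614 and 754 CPM in DMSO and between 1021 and 1225 CPM in doxorubicin. The endothelial gene CDH5 had 56 and 69 counts in replicate 2 of DMSO and of 0.2 μM, and 2, 4 and 5 counts in the other libraries. The part of these differences in the results was not tested.

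The promoters of the genes are shown first, since binding of p53 near the start of transcription is how such targets are commonly recognized. Of the 10 genes, 7 were found in the RefSeq table of promoter windows (GRCh38.p14), each of which spans 250 bases before to 50 bases after an annotated start site. Both strands were searched for the p53 decamer consensus without mismatches, and for pairs of decamers 0 to 13 bases apart with at most 3 mismatches in all. Both decamers of a pair had to keep the C and the G of the core CNNG, so that mismatches were allowed only at the other positions. Perfect single decamers and pairs can overlap. A perfect decamer was found in 3 of the 7 windows (AEN, FDXR and RPS27L), against 6.63% of all 35116 windows. A pair was found in 4 of the 7 (the same genes and ZMAT3), against 12.8% of all windows. Only the first listed window of each gene was searched, whereas the shares are over all windows, which were not matched for content of G and C. The genes were chosen as known p53 targets, so that the counts are a description. These are matches of letters and not measured sites. The windows with a match are printed here on the strand of the gene, with the decamers in capitals, because they show how near to the start site the matches lie. The windows of AEN and ZMAT3 lie around a start site inside the annotated gene. That of AEN is at chr15:88621090-88621389 (plus strand), the window of ZMAT3 at chr3:179071760-179072059 (minus), that of FDXR at chr17:74872945-74873244 (minus) and that of RPS27L at chr15:63157428-63157727 (minus).
AEN: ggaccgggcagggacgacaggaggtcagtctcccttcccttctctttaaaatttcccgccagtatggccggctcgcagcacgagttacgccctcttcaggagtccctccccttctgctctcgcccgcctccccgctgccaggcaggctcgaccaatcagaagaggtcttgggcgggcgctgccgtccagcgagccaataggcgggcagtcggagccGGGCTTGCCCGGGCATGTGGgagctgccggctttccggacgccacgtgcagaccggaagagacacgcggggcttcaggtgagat
ZMAT3: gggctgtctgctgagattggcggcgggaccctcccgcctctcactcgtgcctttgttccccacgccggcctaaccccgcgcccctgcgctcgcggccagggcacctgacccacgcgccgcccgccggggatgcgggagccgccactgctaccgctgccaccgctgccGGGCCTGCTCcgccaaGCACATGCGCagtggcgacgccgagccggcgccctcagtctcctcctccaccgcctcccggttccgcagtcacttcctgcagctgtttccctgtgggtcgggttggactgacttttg
FDXR: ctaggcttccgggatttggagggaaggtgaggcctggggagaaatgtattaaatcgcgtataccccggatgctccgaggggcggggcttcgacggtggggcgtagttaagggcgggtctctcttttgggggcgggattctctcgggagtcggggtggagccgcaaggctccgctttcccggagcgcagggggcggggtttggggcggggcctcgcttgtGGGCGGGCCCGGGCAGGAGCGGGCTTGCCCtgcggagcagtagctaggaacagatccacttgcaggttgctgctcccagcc
RPS27L: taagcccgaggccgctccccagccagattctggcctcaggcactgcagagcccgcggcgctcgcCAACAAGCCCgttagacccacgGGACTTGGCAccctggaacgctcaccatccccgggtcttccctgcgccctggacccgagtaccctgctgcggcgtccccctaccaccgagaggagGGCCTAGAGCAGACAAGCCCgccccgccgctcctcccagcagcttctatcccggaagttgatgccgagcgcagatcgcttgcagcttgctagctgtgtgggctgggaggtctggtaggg

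In AEN the pair ran from 34 to 15 bases before the start site, with no base between the decamers and 2 mismatches. In FDXR a perfect decamer ended 2 bases before the start site. It closed a pair with no spacer and 3 mismatches, and also a pair with a spacer of 10 bases and 2 mismatches. In RPS27L the nearer pair ended 50 bases before the start site, and in ZMAT3 the pair ended 58 bases before it with a spacer of 6 bases and 3 mismatches. No match was found in the windows of TP53I3, TRIAP1 and SPATA18, which says only that these 300 bases hold no match under these rules. A run of at least 3 copies of TGNCC was also searched, because a repeat of this kind is known near the start of TP53I3. It was found in 0 of the 7 windows and in 0.0626% of all windows. The windows end 50 bases after the start site, so that a repeat further downstream could not be found.

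**Figure D1:**
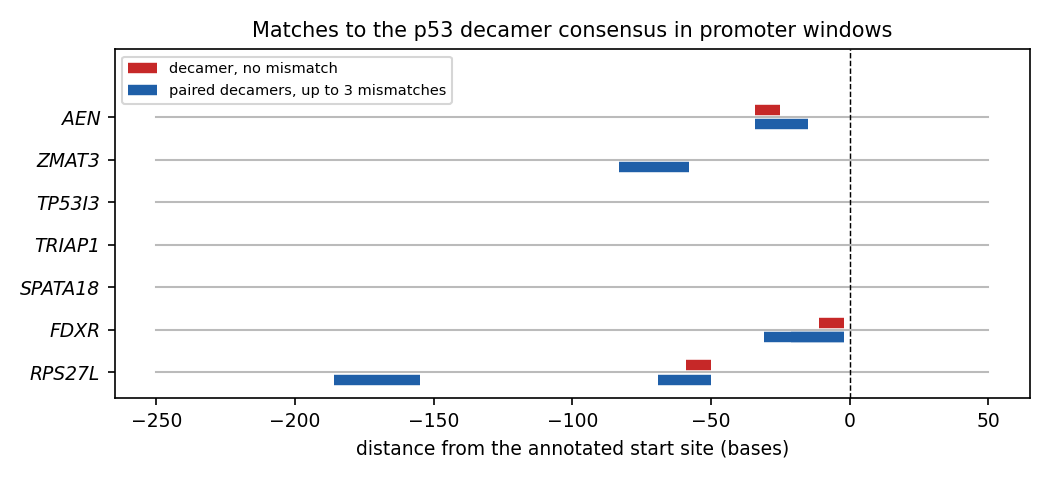
Position of the matches to the p53 decamer consensus in the promoter windows of the 7 genes in the RefSeq table, as the distance in bases from the annotated start site. Red bars are single decamers without mismatches. Blue bars are pairs of decamers with at most 3 mismatches in all and none in the C and G of the CNNG cores. All matches lie upstream of the start site, and 3 genes have none.

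After doxorubicin, mRNA levels of all 10 genes were higher than in DMSO. Of these, 9 passed an adjusted p of 0.01 in the quasi-likelihood test of edgeR. Over all genes tested, 1.29% passed it as higher. The exception was AEN, which lay just outside. The study used this threshold with DESeq2, which here called 10 of the 10 genes and 6.37% of all genes as higher. The log2 fold changes were between 1.54 and 3.75, that is 2.92-fold to 13.4-fold, with a median of 1.75 against 0.013 for all genes tested. In each of the 10 genes the 3 doxorubicin libraries lay above both DMSO libraries, as they did in 24.3% of all genes tested. In a culture analysed as a whole, more mRNA per cell and more cells of a kind that holds the mRNA cannot be told apart.

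**Figure D2:**
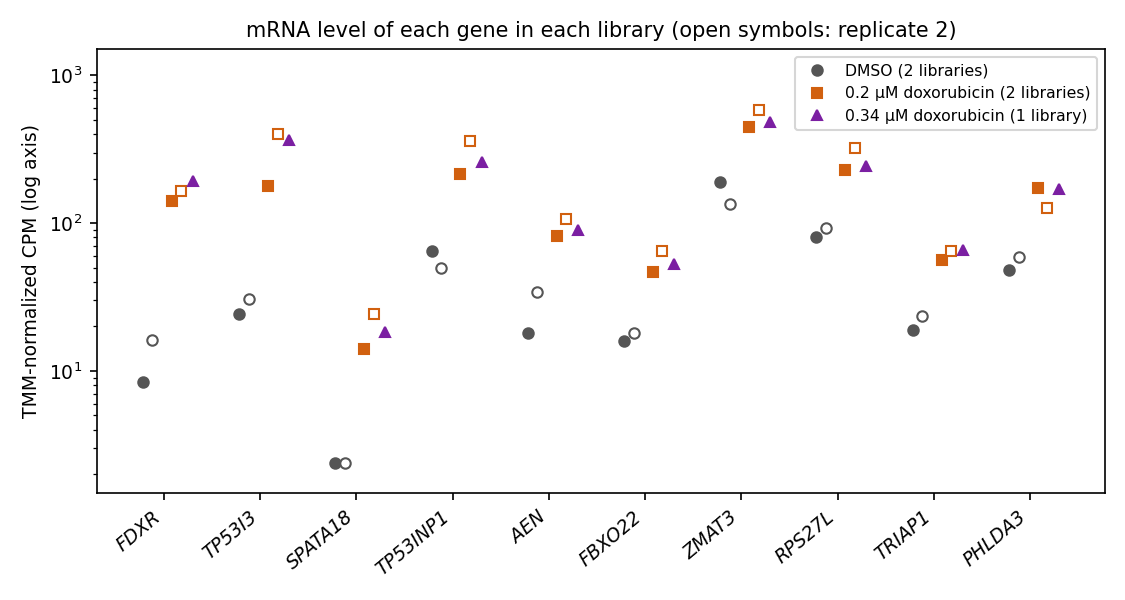
Level of each gene in each library, as TMM-normalized CPM on a log axis, with genes ordered by fold change. Grey circles are DMSO, orange squares 0.2 μM and purple triangles 0.34 μM doxorubicin, and open symbols are replicate 2. In every gene the doxorubicin libraries sit above both DMSO libraries, and the widest gaps are those of FDXR, TP53I3 and SPATA18.

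The largest rises were those of the oxidoreductases. FDXR (chromosome 17 of GRCh38, 74862497 to 74872994, minus strand) encodes the mitochondrial reductase that passes electrons from NADPH to ferredoxins, for steroid hydroxylation and the assembly of iron-sulphur clusters. It had 8.43 and 16.3 CPM in DMSO, 142 and 164 CPM at 0.2 μM and 192 CPM at 0.34 μM. The DMSO libraries, with 221 and 416 counts, were unequal, but both lay far below the doxorubicin libraries. The mean rose from 12.4 ± 5.56 CPM (SD, n = 2) to 166 ± 25.4 CPM (SD, n = 3), which on the log2 scale is 3.75 ± 0.33 (SE), with a Benjamini-Hochberg adjusted p = 0.00163 by the quasi-likelihood test of edgeR. Among all genes tested this was the 70th highest fold change.

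TP53I3 (chromosome 2, 24077433 to 24084834, minus strand), also known as PIG3, encodes an NADPH-dependent quinone reductase. It had 24.3 and 30.8 CPM in DMSO, 179 and 399 CPM at 0.2 μM and 366 CPM at 0.34 μM. The DMSO libraries were close to each other, whereas the 0.2 μM libraries were the most unequal of any of the 10 genes. The log2 fold change was 3.51, with a 95% interval from 2.56 to 4.46 (edgeR, adjusted p = 0.00348). TP53I3 overlaps FAM228B, which had between 90 and 165 counts in all libraries and a log2 fold change of 0.15.

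Of the mitochondrial proteins, SPATA18 (chromosome 4, 52051304 to 52097299, plus strand), also known as Mieap, takes part in the removal of damaged mitochondrial proteins. It was the least abundant of the 10 genes, with 62 and 61 counts in DMSO, 363 and 583 at 0.2 μM and 670 at 0.34 μM. In CPM it rose from 2.38 ± 0.0171 (SD, n = 2) to 18.9 ± 5.12 (SD, n = 3), with DMSO libraries that were nearly equal. Its log2 fold change was 2.99 ± 0.30 (SE; edgeR, adjusted p = 0.0023). TRIAP1 (chromosome 12, 120443964 to 120446384, minus strand) encodes a small protein of the space between the mitochondrial membranes that works with PRELID proteins in lipid transfer. It had 18.8 and 23.5 CPM in DMSO, 56.2 and 64.4 CPM at 0.2 μM and 66.0 CPM at 0.34 μM, so that both groups were narrow. The log2 fold change of TRIAP1 was 1.56 (edgeR, adjusted p = 0.00355), and its SE of 0.18 was the smallest of the 10 genes.

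TP53INP1 (chromosome 8, 94925972 to 94949378) encodes a stress-induced protein that binds p53 kinases and takes part in autophagy. It had 65.0 and 49.7 CPM in DMSO, 213 and 358 CPM at 0.2 μM and 259 CPM at 0.34 μM, which gave a log2 fold change of 2.27 ± 0.27 (SE; edgeR, adjusted p = 0.00422). The 0.34 μM library lay between the 0.2 μM libraries. TP53INP1 overlaps NDUFAF6, which had between 150 and 234 counts and a log2 fold change of -0.39.

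Of the remaining genes, those past the threshold rose about 3-fold. ZMAT3 (chromosome 3, 179017223 to 179072513, minus strand), also known as Wig-1, encodes a zinc finger protein that binds RNA and affects mRNA stability and splicing. It was the gene with the most counts, with 189.7 and 135 CPM in DMSO, 446 and 584 CPM at 0.2 μM and 482 CPM at 0.34 μM. Its log2 fold change was 1.64 ± 0.22 (SE; edgeR, adjusted p = 0.00656). ZMAT3 and TP53INP1 were the genes of which replicate 1 was the higher DMSO library.

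PHLDA3 (chromosome 1, 201464278 to 201469188) encodes a small pleckstrin homology protein that competes with AKT for membrane lipids. It had 48.1 and 59.3 CPM in DMSO, 173 and 126 CPM at 0.2 μM and 171 CPM at 0.34 μM. Its log2 fold change of 1.54 was the smallest of the 10 genes (95% interval 1.05 to 2.04; edgeR, adjusted p = 0.00622). Alone among the 10 genes, PHLDA3 was lower in replicate 2 than in replicate 1 of 0.2 μM doxorubicin.

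FBXO22 (chromosome 15, 75903878 to 75942511) encodes the substrate-binding subunit of an SCF ubiquitin ligase. It had 16.0 and 18.1 CPM in DMSO, 46.9 and 64.2 CPM at 0.2 μM and 52.9 CPM at 0.34 μM, or 1.68 ± 0.20 (SE) as a log2 fold change (edgeR, adjusted p = 0.00387). FBXO22 overlaps NRG4, which had between 4 and 24 counts. RPS27L (chromosome 15, 63148249 to 63157477, minus strand) encodes a close paralogue of the ribosomal protein RPS27 that also binds the p53 antagonist MDM2. It had 80.6 and 92.4 CPM in DMSO, 227 and 322 CPM at 0.2 μM and 243 CPM at 0.34 μM, or 1.61 ± 0.21 (SE) as a log2 fold change (edgeR, adjusted p = 0.00544). RPS27 itself went from 219 and 226 CPM in DMSO to 262, 372 and 287 CPM in doxorubicin. It did not pass the threshold, with a log2 fold change of 0.47 (95% interval 0.0077 to 0.92; edgeR, adjusted p = 0.156). The sources used here do not give how reads shared by RPS27 and RPS27L were counted.

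AEN (chromosome 15, 88604683 to 88632281, plus strand) encodes a nuclease of the exonuclease III family that cuts DNA and RNA. It had 18.0 and 34.2 CPM in DMSO, 81.5 and 107 CPM at 0.2 μM and 90.1 CPM at 0.34 μM. The groups did not overlap, but the DMSO libraries differed by 0.92 on the log2 scale, about as far as those of FDXR (0.94). The log2 fold change of AEN was 1.83 (95% interval 1.12 to 2.54) and its adjusted p in edgeR, 0.0116, missed the threshold. It passed with limma voom (adjusted p = 0.00923), with DESeq2 (adjusted p = 9.9e-08) and in edgeR without the filter on low counts (adjusted p = 0.00168), and over 12 other settings of edgeR, DESeq2 and limma voom its adjusted p was between 9.9e-08 and 0.0664. AEN also passed in edgeR with the replicate number as a block over DMSO and 0.2 μM (adjusted p = 1.04e-05). The other genes annotated within AEN, LINC01586 and 3 microRNA genes, had between 0 and 2 counts.

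**Figure D3:**
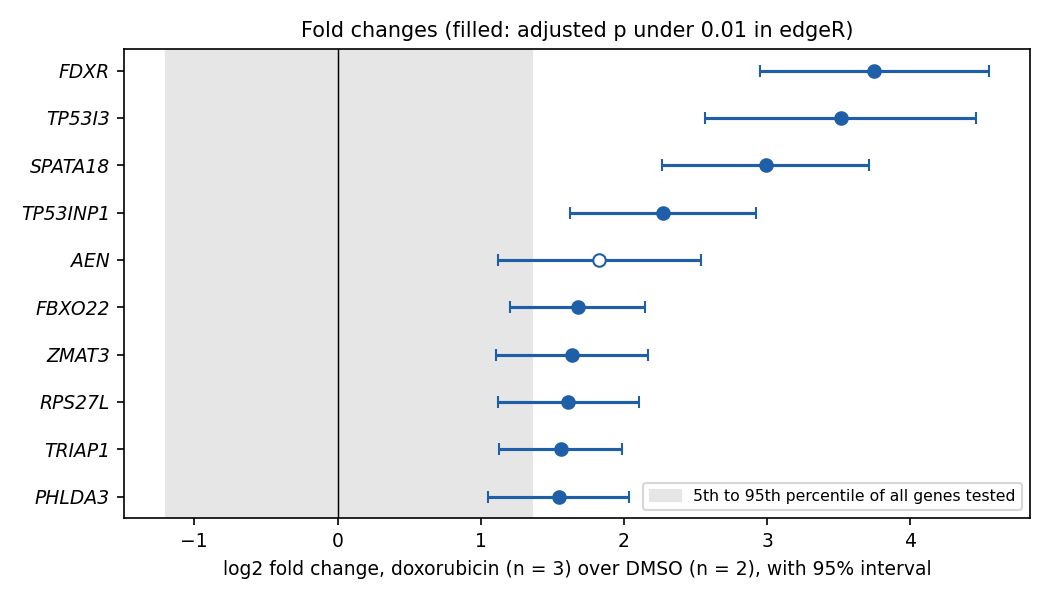
Log2 fold change of doxorubicin (n = 3) over DMSO (n = 2) with its 95% interval from edgeR's quasi-likelihood fit, for each of the 10 genes. Filled points passed the adjusted p of 0.01, the open point (AEN) did not, and the grey band spans the 5th to 95th percentile of all genes tested (-1.20 to 1.36). All point estimates lie to the right of the band, and the intervals of FDXR, TP53I3 and SPATA18 do not reach those of the 5 lowest genes.

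The calls changed with the libraries used. With 1 library left out, the genes past the threshold were only FDXR without DMSO replicate 1 or 2 (0.22% and 0.0137% of all genes called higher), SPATA18 without replicate 2 of 0.2 μM (0.264%), TP53I3, SPATA18 and FDXR without the 0.34 μM library (0.274%), and these with TP53INP1 without replicate 1 of 0.2 μM (0.509%). The median log2 fold change of the 10 genes stayed between 1.70 and 1.91 in these fits, and DESeq2 and limma voom on all libraries each called 10 of 10 genes (6.37% and 1.12% of all genes called higher).

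The genes were next compared by dose, where 0.34 μM has a single library, which shares its DMSO libraries with the 0.2 μM comparison. In a fit of 3 conditions, the log2 fold changes from DMSO at 0.2 μM and at 0.34 μM were 3.62 and 3.96 for FDXR, 3.38 and 3.73 for TP53I3, and 3.00 and 2.95 for SPATA18. For TP53INP1 they were 2.31 and 2.17, for PHLDA3 1.47 and 1.67, and for TRIAP1 1.51 and 1.64. At 0.2 μM 3 of the 10 genes passed the threshold (FDXR, TP53I3 and SPATA18, against 0.292% of all genes called higher) and at 0.34 μM only FDXR did (against 0.156%). The 0.34 μM library is assumed there to vary like the other groups, and the numbers of calls do not compare the doses, since the arms differ in size. For AEN, ZMAT3, FBXO22 and RPS27L the value was slightly lower at the higher dose. In the 0.34 μM library these genes were higher than in replicate 1 of 0.2 μM and lower than in replicate 2. The labels do not say with which of these the 0.34 μM library was prepared. A difference of dose therefore cannot be told apart from one between replicates. Between the doses, 0 of the 10 genes passed the threshold in edgeR, DESeq2 or limma voom, as did 0% of all genes in each. At an unadjusted p under 0.05 there were also 0 of the 10 in each of these tools, against 0.183% of all genes in edgeR and 0.159% in DESeq2. The log2 differences of 0.34 μM from 0.2 μM were between -0.17 (RPS27L) and 0.34 (TP53I3). Their 95% intervals were wide, from -0.73 to 1.42 for TP53I3, from -0.58 to 1.24 for FDXR and from -0.91 to 0.56 for RPS27L, and those of TP53I3 and FDXR included changes above 1, while those of AEN, TP53INP1 and SPATA18 reached just below -1.

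The libraries of 0.2 μM also differed from each other. In 9 of the 10 genes replicate 2 of 0.2 μM was higher than replicate 1, with a median log2 difference of 0.42 and the largest in TP53I3 (1.16), SPATA18 (0.79) and TP53INP1 (0.75). Of all genes tested, 52.2% were higher in replicate 2. The 0.34 μM library was above replicate 1 of 0.2 μM in 9 of the 10 genes, by a median of 0.20, and above replicate 2 in 3 of them (FDXR, PHLDA3 and TRIAP1), against 47.5% and 47.3% of all genes tested. In 8 of the 10 genes, and in 47.4% of all genes tested, it lay between the 0.2 μM libraries, and in FDXR and TRIAP1 above both. The DMSO libraries differed in the same direction in 8 of the 10 genes, replicate 2 being higher by a median of 0.25, against 50.5% of all genes tested. The median absolute difference of the 10 genes was 0.33 in the DMSO pair and 0.46 in the 0.2 μM pair. Over all genes tested it was 0.36 and 0.29. Between the 0.34 μM library and replicate 1 of 0.2 μM it was 0.20 for the 10 genes and 0.11 for all genes tested. Against replicate 2 it was 0.280 and 0.276.

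**Figure D4:**
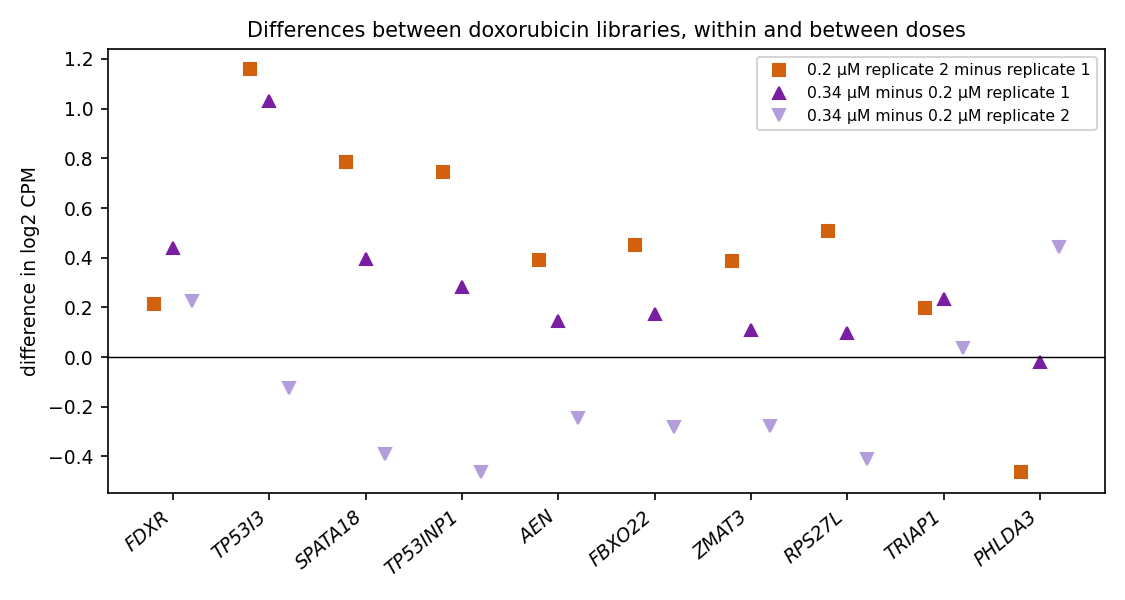
Difference in log2 CPM between pairs of doxorubicin libraries for each gene. Orange squares compare the replicates of 0.2 μM, dark triangles the 0.34 μM library with replicate 1 and light triangles the same library with replicate 2 of 0.2 μM. The differences between the doses take opposite signs against the replicates in 8 of the 10 genes, and TP53I3 has the largest difference within 0.2 μM (1.16).

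Levels can be compared between genes only per length, and the lengths had to be taken from GENCODE v44 gene models and not from the annotation used for counting. Per kilobase of the canonical transcript, SPATA18 was the lowest of the 10 genes in DMSO with 0.537 ± 0.00385 CPM per kilobase (SD, n = 2), below FBXO22 with 1.60 ± 0.140. FDXR (6.70 ± 3.01), AEN (8.50 ± 3.72) and TP53INP1 (10.2 ± 1.93) came next, and the ranges of neighbours among these 3 overlapped. RPS27L, TP53I3, ZMAT3, TRIAP1 and PHLDA3 had between 14.2 and 19.5 CPM per kilobase, and the ranges of neighbours among these also overlapped. In doxorubicin TP53I3 (190.3 ± 71.8, SD, n = 3) and FDXR (89.9 ± 13.7) were the highest, and the ranges of both were apart from the genes that followed them. TP53I3 thus went from the 4th to the 1st place and FDXR from the 8th to the 2nd. Per kilobase of coding sequence the order was different. RPS27L, whose canonical transcript model is 6110 bases long for 371 coding bases, was then the highest in both conditions (233 ± 22.4 and 712 ± 138 CPM per coding kilobase), while TP53I3 went from the 7th to the 5th place, FDXR only from the 9th to the 8th, and SPATA18 was the lowest in both.

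Other known targets of p53 were taken from a list of 35 genes by role, of which 34 passed the filter on low counts. This list, and that of paralogues and partners below, was drawn up with earlier results of these data known. In this list 33 genes had higher and 1 had lower levels after doxorubicin, and 19 passed the threshold as higher, against 1.29% of all genes tested, and 0 as lower. The median log2 fold change was 1.70 against 1.75 for the 10 genes described here. All 6 targets in metabolism and stress had higher levels and 5 passed the threshold, among them GLS2, a mitochondrial glutaminase (3.67), the sestrins SESN2 (2.38) and SESN1 (2.33), and TIGAR (2.24), which lowers glycolytic flux. The fifth was DRAM1, of autophagy (1.61). All 4 targets in DNA repair were higher and 3 passed, namely RRM2B (1.96), XPC (1.79) and POLH (1.05). All 7 targets in arrest were higher and 3 passed, namely BTG2 (3.53), the CDK inhibitor CDKN1A (3.39) and the kinase PLK3 (2.16). Of 7 tested targets in death 6 were higher and 2 passed, the BH3-only gene BBC3 (2.98) and the death receptor gene TNFRSF10B (1.87), and of 4 in feedback on p53, all higher, 1 passed, MDM2 (2.19). The other roles held 6 genes, all higher, of which 5 passed, namely the fucosidase FUCA1 (2.16), TRIM22 (2.02), EPS8L2 (2.01), SUSD6 (1.61) and NINJ1 (1.27). The sixth was the secreted factor GDF15, with 2 and 5 counts in DMSO, a log2 fold change of 3.60 and an adjusted p of 0.0191 in edgeR. DRAM1, GDF15, the repair genes, TNFRSF10B, SUSD6 and NINJ1 are named to complete these counts, after their values were seen. The lower gene was APAF1 (-0.09), picked here for that value. Fewer of these targets passed the threshold in edgeR when 1 library was left out, as was so for all genes tested. Both numbers are given with the other settings below.

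The paralogues and partners of the 10 genes were examined as relatives, and whether any of them is itself a p53 target was not checked. Of a list of 27, 24 were tested, and 0 passed the threshold in edgeR (4.02% of all genes passed it in either direction). At an unadjusted p under 0.05 there were 4 higher and 4 lower, against 15.2% and 15.6% of all genes tested. DESeq2 called 1 higher (6.37% of all genes), ZMAT5, a zinc finger protein of the spliceosome, picked here for that call (0.87 on the log2 scale; edgeR, adjusted p = 0.0458). The median log2 fold change was 0.18, and it ranged from -0.63 to 1.36, with 15 of the 24 higher. The genes named here are only part of the list and were picked outside the rule for naming genes. The highest was ISG20, a paralogue of AEN, with only 14 and 8 counts in DMSO. TP53INP2, the paralogue of TP53INP1, had 0.61, and BNIP3, listed with SPATA18, had 0.53. The ferredoxins that FDXR reduces, FDX1 and FDX2 (listed as FDX1L), had log2 fold changes of 0.31 and 0.73. AKT1 and AKT2, the kinases that PHLDA3 opposes, had -0.38 and -0.13, and its paralogues PHLDA1 and PHLDA2 had -0.60 and -0.04. The core subunits of the ligase of FBXO22, SKP1, CUL1 and RBX1, had 0.10, -0.46 and 0.24. For HIPK2, a kinase partner of TP53INP1, it was -0.63, and for PRELID1, the partner of TRIAP1, it was -0.54. None of these passed the threshold.

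**Figure D5:**
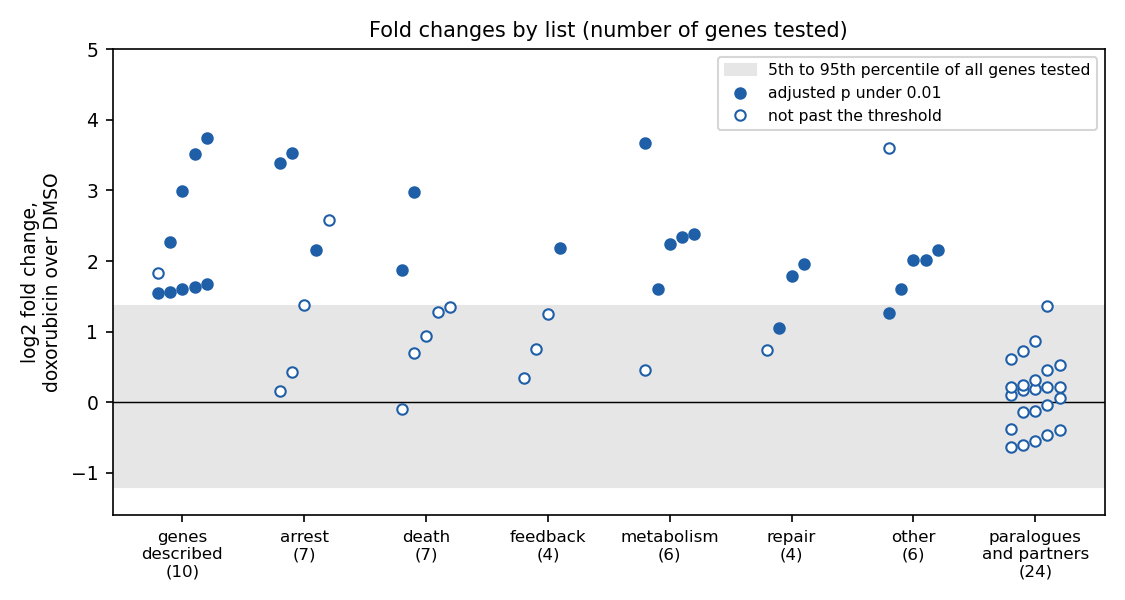
Log2 fold changes of doxorubicin over DMSO for the 10 genes described, for the other p53 targets by role and for the paralogues and partners, each point being 1 gene and the number tested standing under each group. Filled points passed the adjusted p of 0.01 in edgeR and the grey band spans the 5th to 95th percentile of all genes tested (-1.20 to 1.36). The 10 genes lie above the band, and the paralogues and partners lie within it but for ISG20, at its upper edge (1.36).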

How the data were processed

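RNA was measured in 2 libraries of DMSO, 2 of 0.2 μM and 1 of 0.34 μM doxorubicin. The authors deposited raw counts per gene. STAR was their aligner, of paired-end reads to hg38, and Rsubread their counter, on the iGenomes annotation. Versions, strandedness and the handling of multi-mapping reads are not given in the sources used, so that counts of genes that overlap or share sequence are uncertain. A further deposited table, of the authors' own comparison (mean levels, fold changes and p-values), was not used.

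Doxorubicin (n = 3) was compared with DMSO (n = 2) in R 4.3.3 with edgeR 4.0.16, using the quasi-likelihood test, TMM normalization, filterByExpr (minimum count 10, minimum total 15) and Benjamini-Hochberg adjustment over all genes tested. The study's threshold of 0.01, which it used with DESeq2, was kept. Doses were compared in a fit with 3 conditions. The SE is the log2 fold change over the root of F, without its sign. For log2 CPM the prior count was 2. Alternatives were DESeq2 1.42.0, limma 3.58.1 (voom), other normalization, filter and threshold, a replicate block, and each library left out. Fits were tested on simulated data. Positions and promoters are RefSeq's (GRCh38.p14, the build called hg38 by UCSC), and transcript lengths are from GENCODE v44. The 10 genes, the lists and the naming rule (the 10 genes, RPS27, up to 12 called genes of the lists, the 5 nearest profiles) were chosen with earlier results of these data known. A further gene of that rule is not reported here. The partner PRELID3B was not matched to a row.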

Additional observations from a re-analysis of the deposited data

How the results depend on the processing

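The direction of all 10 log2 fold changes was kept in all settings tried. Of 130 single values, 76 kept their side of the threshold, 49 lost it and 5, all of AEN, gained it. These include the main fit read at an adjusted p of 0.05 for each gene, which could not lose the threshold. The gain of AEN there came from the looser threshold and not from a changed value. With 1 library left out, the number of the 10 genes past the threshold was between 1 and 4, the number of all genes between 49 and 215, and the number of other p53 targets between 0 and 16. In a fit of 3 conditions these numbers were 3, 185 and 10 for 0.2 μM and 1, 98 and 5 for 0.34 μM. DESeq2 called 2026 genes, edgeR without the filter on low counts 1020, and edgeR at an adjusted p of 0.05 called 1927, against 571. Of the paralogues and partners, DESeq2 called 1 and edgeR at an adjusted p of 0.05 also 1, against 0. Of the 9 neighbouring pairs of genes in the order of levels in DMSO, the ranges of 3 were apart per length of the canonical transcript and 6 per coding length. Per union of all exons, a length chosen after seeing the data, it was 3. The cause of these changes was not tested. All tests rest on 2 DMSO libraries.

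The titles number only replicate 2, the number 1 was given here to the other library, and the labels do not say whether libraries were prepared together. The differences of replicate 2 from replicate 1 in DMSO and at 0.2 μM correlated across genes with a Pearson's r of 0.53 (14187 genes, which are not independent replicates). With the replicate number as a block over DMSO and 0.2 μM, 10 of the 10 genes, 25 other p53 targets, 0 paralogues and partners and 1249 of all genes passed the threshold (4.18% of all genes as higher), with an adjusted p of 1.04e-05 in edgeR for AEN.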

Other observations

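The genes with the most similar pattern to the 10 genes, over 5 libraries, were STOM, NADSYN1, SEMA3B, CD82 and RPL23AP53, among genes outside the lists whose log2 CPM averaged 1 or more. The measure was the root mean square distance between the centred log2 CPM of a gene and the mean of the 10 genes, and it was between 0.098 (STOM) and 0.16 (RPL23AP53). The 10 genes themselves were at 0.23 (TP53INP1) to 0.81 (FDXR) from their mean. STOM, which encodes the membrane protein stomatin, had 575 and 601 counts in DMSO, 2762 and 3137 at 0.2 μM and 4333 at 0.34 μM, a log2 fold change of 2.39. NADSYN1, an enzyme of NAD synthesis, had one of 2.29, the secreted semaphorin SEMA3B 2.09, the tetraspanin CD82 2.21 and the ribosomal protein pseudogene RPL23AP53 1.95. RPL23AP53 can share reads with other copies of its parent gene. All 5 genes were picked for their pattern, so that their values are a description without a test. Whether they are themselves p53 targets was not checked.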
